A study of Homo sapiens with 12 samples.

Results

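The genes described here are 10 granins and prohormone processing genes: CHGA, CHGB, SCG2, SCG3, SCG5, PCSK1, PCSK1N, CPE, VGF and PTPRN. They were taken as the probe sets whose annotation gives exactly 1 gene symbol, that of a member, and where a gene had several, the probe set was to be chosen by its mean signal over the 12 arrays. Each of 9 genes had 1 probe set, so the mean decided nothing, and PCSK1 had no probe set under this rule and is not analysed here. The 9 are among 18417 named genes, and all 9 are among the 16939 genes tested. The study measured messenger RNA with Affymetrix arrays in 12 samples of 2 established human lung cancer lines, A549 (a lung adenocarcinoma line) and HTB56 (also known as Calu-6). A0R and H0R are the unselected lines, with 0 rounds of selection. A3R and H3R are the same lines after 3 rounds of selection in mice for forming lung nodules from cells injected into a vein, so each selected line stands for 1 selection lineage as far as the labels tell. Each of the 4 groups has 3 arrays, and none was treated with 5-azacytidine. The labels do not say whether replicates were separate cultures, so each p-value measures only the spread between these samples, which may be technical.

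Granins are acidic secretory proteins that are packed into dense-core granules, the storage vesicles from which endocrine and nerve cells release peptide hormones on demand. Inside the granule, prohormone convertases such as PCSK1 cut precursors at pairs of basic residues, and carboxypeptidase E, encoded by CPE, trims the basic residues from the cut ends. SCG5 encodes 7B2, a chaperone of the convertase PCSK2, PCSK1N encodes proSAAS, an inhibitor of PCSK1, and PTPRN encodes IA-2, a protein of the granule membrane. In lung tumours these genes are best known as neuroendocrine markers.

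All values are log2 RMA signals. The number of arrays limits the precision, and array medians lay between 5.55 and 5.67. The mean 20th percentile of the arrays, 3.48, is used here as the mark of a dim signal. Deviations from the group means were shared by arrays of the same replicate number. A0R replicate 2 stood apart: on 25 other genes that are bright in HTB56 (at least 8) and dim in A549 (median at most 5), its median excess over the A549 median of each gene was 0.86, and that of the other A549 arrays lay between -0.15 and 0.08. On the granin genes the same array differed from the A549 median by less than that excess. The difference was 0.02 for SCG3, -0.03 for CHGB, 0.10 for SCG2, 0.13 for VGF and 0.26 for CHGA. For CHGA and VGF it was still the highest of the A549 arrays.

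In selected HTB56 cells 5 cargo genes (CHGA, CHGB, SCG2, SCG3 and VGF) and the granule membrane gene PTPRN were lower, while CPE and the genes of both convertase-binding proteins, SCG5 and PCSK1N, were not called. A gene is called at a limma adjusted p below 0.05 over all genes tested. In H3R against H0R, 6 of 9 genes were called lower (CHGA, CHGB, SCG2, SCG3, VGF and PTPRN) and 0 higher, beside 10.9% of all genes called lower and 8.57% called higher. The arrays of both groups did not overlap for the same 6 genes, beside 34.3% of all genes. The median change over the 9 genes was -2.53, beside 0.02 over all genes. The falls of SCG3, CHGB and SCG2 were known when the genes were chosen, so these counts are a description, and no p is given for those 3 in this comparison. In bulk samples, fewer cells that carry a transcript and less of it per cell cannot be told apart.

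**Figure D1:**
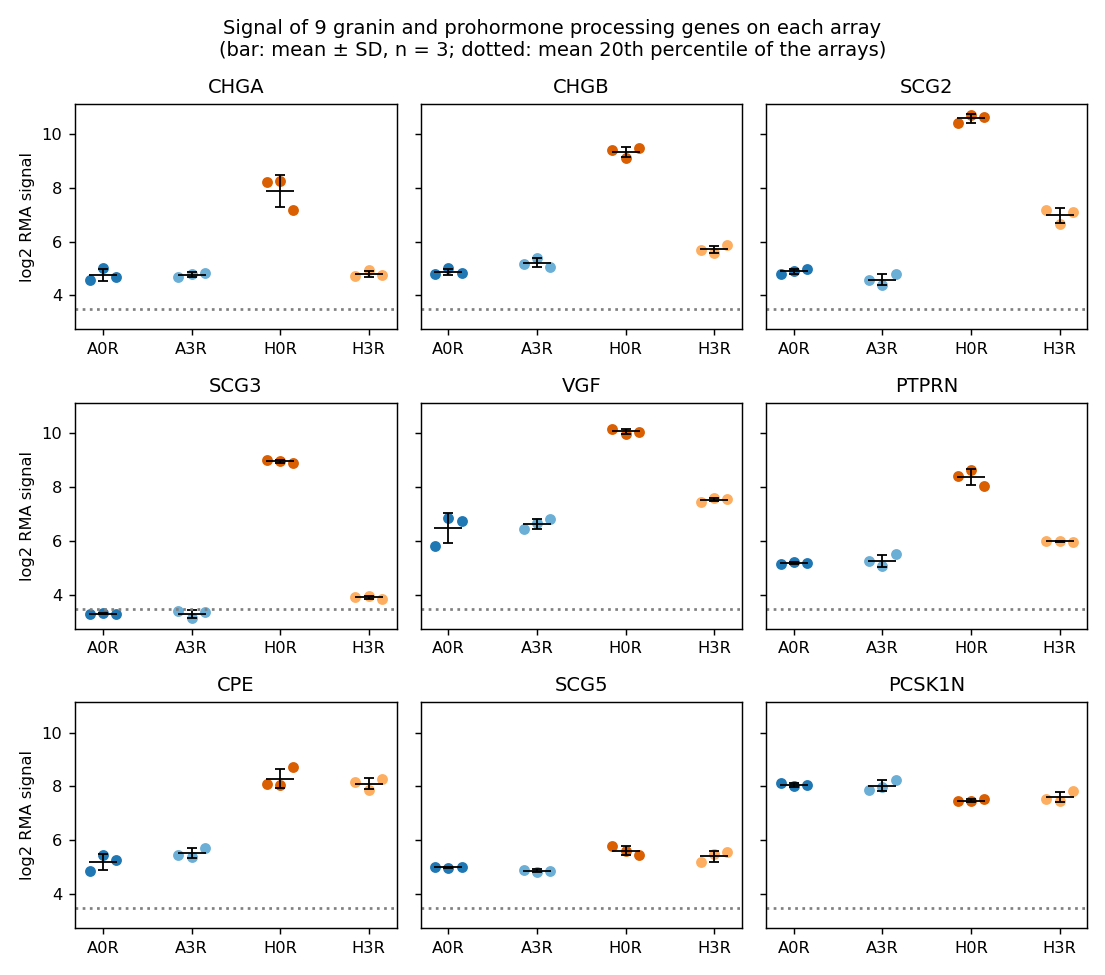
Log2 RMA signal of each of the 9 measured genes on the 12 arrays, with 1 panel per gene, the 4 groups on the x axis, points for arrays, and bars for the mean ± SD (n = 3). The dotted line is the mean 20th percentile of the arrays (3.48). CHGA, CHGB, SCG2, SCG3, VGF and PTPRN are high in H0R and lower in H3R, CPE is high in both HTB56 groups, and SCG3 in A549 lies under the dotted line.

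SCG3 encodes secretogranin III, which holds granin aggregates to the cholesterol-rich granule membrane. Its signal was 9.004, 8.966 and 8.906 on the H0R arrays and 3.90, 3.95 and 3.85 on the H3R arrays. The groups lie far apart with little spread inside either. The change was -5.06 (SE 0.10, 95% confidence interval -5.27 to -4.86), a 33.4-fold fall to 2.99% of the unselected signal, and the largest fall among the 16939 genes. The A549 arrays read 3.29, 3.33 and 3.27 in A0R and 3.39, 3.12 and 3.35 in A3R, all under the dim mark, so SCG3 passed the filter on dim signals through its 6 HTB56 arrays alone. H3R was near that mark, and the size of the fall therefore depends on background.

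CHGB encodes chromogranin B, a major soluble granin of the granule core. It read 9.40, 9.13 and 9.47 in H0R and 5.71, 5.58 and 5.86 in H3R, a change of -3.62 (SE 0.12), to 8.16% of the unselected signal. SCG2 encodes secretogranin II, the precursor of the peptide secretoneurin. It read 10.41, 10.72 and 10.64 in H0R and 7.17, 6.67 and 7.11 in H3R, a change of -3.61 (SE 0.14), to 8.20%. These were the falls ranked 5 and 6 among all genes. Their remaining signals differed in degree. In H3R, CHGB was at 5.72, above its A549 means of 4.88 in A0R and 5.21 in A3R. SCG2 was at 6.98 in H3R, further above its own A549 means of 4.90 and 4.59.

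CHGA encodes chromogranin A, the granin used most as a neuroendocrine tumour marker. Its H0R arrays read 8.21, 8.25 and 7.19, so replicate 3 was the lowest by far, and its H3R arrays read 4.71, 4.94 and 4.76. CHGA fell by 3.08 (SE 0.22, limma adjusted p = 2.03e-07), to 11.9% of the unselected signal. Without H0R replicate 3 the change was -3.42. VGF encodes a granin-like precursor of several neuropeptides, first found as a gene induced by nerve growth factor. It read 10.18, 9.99 and 10.06 in H0R and 7.47, 7.60 and 7.55 in H3R. VGF fell by 2.53 (SE 0.20, limma adjusted p = 6.30e-07), to 17.3%, and both groups were tight.

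PTPRN fell as well, although its product is part of the granule membrane rather than its cargo. The H0R arrays read 8.43, 8.64 and 8.05, and the H3R arrays 6.002, 5.989 and 5.979. The change was -2.38 (SE 0.14, limma adjusted p = 3.31e-08), to 19.2% of the unselected signal. PTPRN2, which encodes the related granule protein phogrin, changed by -0.77 (SE 0.16, limma adjusted p = 0.0033), from 6.59 to 5.82.

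CPE did not follow the granins. It read 8.10, 8.06 and 8.71 in H0R and 8.15, 7.89 and 8.29 in H3R, and the groups overlap. The change was -0.18 (SE 0.19, 95% confidence interval -0.58 to 0.22, limma adjusted p = 0.619). SCG5 read 5.78, 5.61 and 5.44 in H0R and 5.18, 5.48 and 5.57 in H3R, a change of -0.20 (95% confidence interval -0.45 to 0.05, limma adjusted p = 0.303). PCSK1N read 7.44, 7.46 and 7.53 in H0R and 7.53, 7.46 and 7.84 in H3R, a change of 0.13 (95% confidence interval -0.13 to 0.39, limma adjusted p = 0.564). These intervals bound the fall in HTB56 at 0.58 for CPE, 0.45 for SCG5 and 0.13 for PCSK1N. The bounds of CPE and PCSK1N are well short of the smallest of the 6 falls (PTPRN, -2.38). SCG5 had an H0R mean of only 5.61, and a fall as large as that of PTPRN would have gone under the dim mark. For SCG5 the test therefore cannot tell whether it would have shown a like fall. The intervals do not show that the 3 genes kept the same level.

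**Figure D2:**
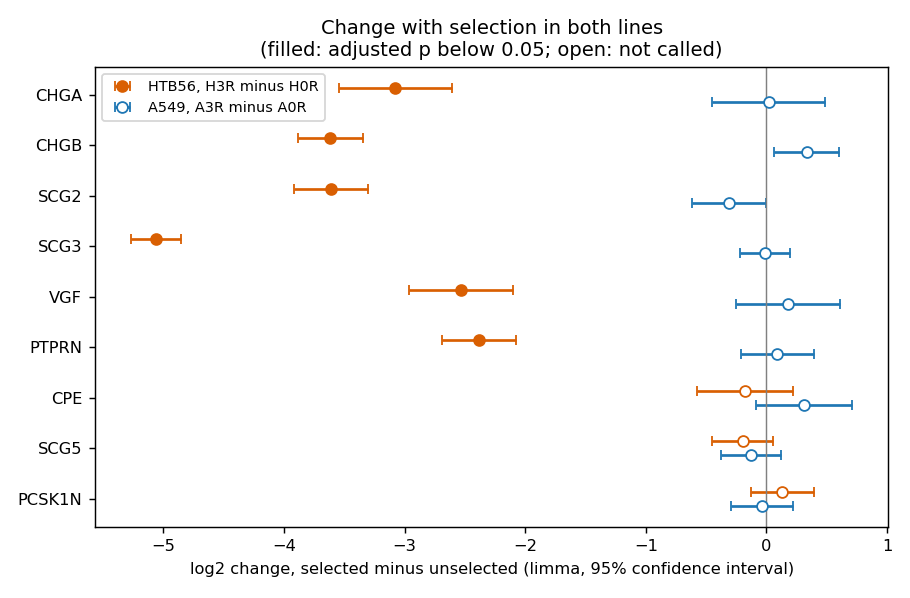
Log2 change between selected and unselected cells (x axis) for each of the 9 genes (y axis), in HTB56 (orange) and A549 (blue), with limma 95% confidence intervals and filled points for genes called at an adjusted p below 0.05. In HTB56, 6 genes lie between -5.06 and -2.38 and the other 3 near 0, while in A549 the 9 genes lie between -0.31 and 0.33 and none is filled.

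In A549 the same selection left the 9 genes within a narrow range. Limma called 0 of 9 in A3R against A0R, beside 1.75% of all genes called in either direction, and 2 of 9 had an unadjusted p below 0.05. The fit that blocks on replicate number and a test against a fold of 1.2 also called 0. Those 2 were CHGB, at 4.78, 5.00 and 4.85 in A0R and 5.166, 5.397 and 5.072 in A3R (log2 change 0.33, limma adjusted p = 0.316), and SCG2, at 4.81, 4.91 and 4.99 in A0R and 4.58, 4.40 and 4.79 in A3R (log2 change -0.31, limma adjusted p = 0.494). Arrays did not overlap for 3 of 9 genes (CHGB, SCG2 and SCG5), beside 12.7% of all genes. CHGA read 4.56 to 5.00 in A0R and 4.68 to 4.84 in A3R, VGF 5.83 to 6.84 and 6.45 to 6.81, PTPRN 5.15 to 5.20 and 5.06 to 5.50, CPE 4.87 to 5.46 and 5.37 to 5.72, SCG5 4.97 to 5.01 and 4.81 to 4.91, and PCSK1N 8.003 to 8.142 and 7.86 to 8.24. The spread of VGF in A0R came from replicate 1, the lowest array.

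The change in HTB56 minus the change in A549 asks whether selection moved a gene differently in both lines. Limma called 6 of 9 lower in this test and 0 higher, beside 6.58% of all genes called lower, and they were the same 6 genes that fell in HTB56. This test includes the H3R and H0R arrays on which the falls of SCG3, CHGB and SCG2 were known, so the count is a description. SCG3 is measured against background in A549. CHGA, CHGB, SCG2 and PTPRN had A0R means of 4.76, 4.88, 4.90 and 5.18. A fall there as large as in HTB56 would have gone under the dim mark of 3.48. For these genes and SCG3 the test therefore cannot tell whether A549 would have shown a like fall. The difference was -3.10 for CHGA (SE 0.31, limma adjusted p = 1.32e-05), -2.71 for VGF (SE 0.28, limma adjusted p = 1.95e-05) and -2.47 for PTPRN (SE 0.20, limma adjusted p = 2.03e-06). It was -5.05 for SCG3, -3.95 for CHGB and -3.30 for SCG2. For CPE it was -0.49 (95% confidence interval -1.06 to 0.07, limma adjusted p = 0.290), and for SCG5 and PCSK1N -0.07 and 0.17, neither called.

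Before selection the lines differed in every measured gene. In H0R against A0R, 8 of 9 were called higher in HTB56, beside 24.9% of all genes, and 1 lower (PCSK1N), beside 20.3%. The differences were 5.69 for SCG2 (SE 0.14), 5.66 for SCG3 (SE 0.10), 4.45 for CHGB (SE 0.12), 3.61 for VGF (SE 0.20), 3.20 for PTPRN (SE 0.14), 3.12 for CHGA (SE 0.22) and 3.09 for CPE (SE 0.19). SCG5 differed by 0.62 and PCSK1N by -0.59, at limma adjusted p = 0.000467 and 0.000966. SCG3 is dim in A549, so its difference is a size against background. Unselected HTB56 cells thus carried high signals of CHGA, CHGB, SCG2, SCG3, VGF, PTPRN and CPE. SCG5 was only slightly higher than in A549, at 5.61 against 4.99, and PCSK1N was higher in A549.

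After selection the lines stood closer. In H3R against A3R, 7 of 9 were called higher in HTB56, beside 24.9% of all genes, and 1 lower (PCSK1N), beside 19.7%. CHGA did not differ beyond its spread, at 0.03 (95% confidence interval -0.44 to 0.50, limma adjusted p = 0.936). CHGB was still higher by 0.50 (SE 0.12), SCG3 by 0.61 (SE 0.10), PTPRN by 0.72 (SE 0.14) and VGF by 0.90 (SE 0.20). SCG3 was under the dim mark on the A3R arrays and near it in H3R, so its difference is a size against background. SCG2 was still higher by 2.39 (SE 0.14), and CPE by 2.60 (SE 0.19). SCG5 differed by 0.55 and PCSK1N by -0.42 (limma adjusted p = 0.0107), and the PCSK1N call was lost without A3R replicate 3 (limma adjusted p = 0.0567) or H3R replicate 2 (0.0579). Both of these comparisons share arrays with the selection comparisons, so their values stand side by side and are no further evidence for them.

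**Figure D3:**
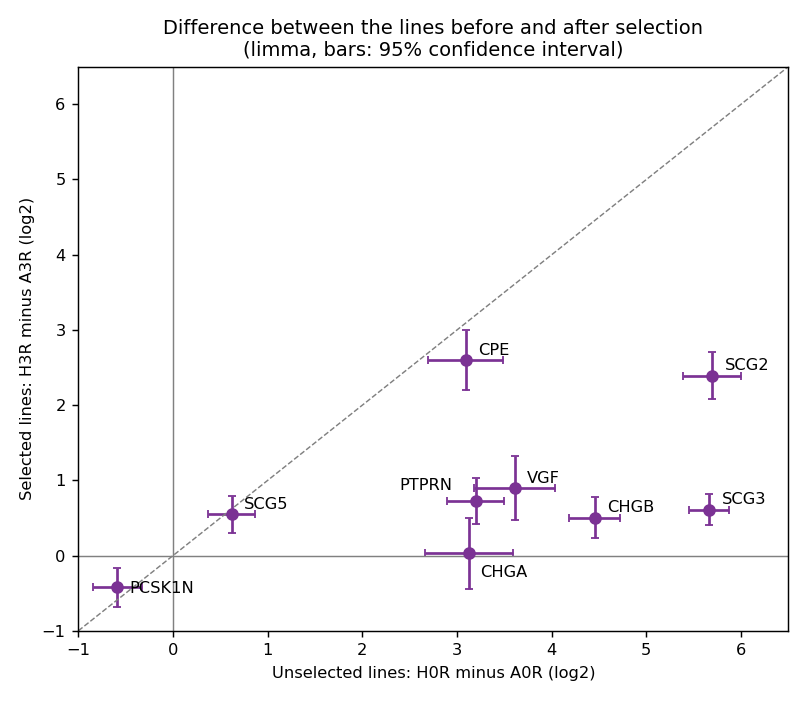
Difference between HTB56 and A549 in log2 signal before selection (x axis, H0R minus A0R) and after it (y axis, H3R minus A3R) for each of the 9 genes, with limma 95% confidence intervals. The dashed line marks equal differences. CPE, SCG5 and PCSK1N lie close to that line, and the other 6 lie below it, with CHGA at 0.03 after selection and SCG2 still at 2.39.

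For a given gene, the 4 groups fell into a simple order. CHGA was high in H0R (7.88 ± 0.60, SD, n = 3) and did not separate the other groups, which had means of 4.76, 4.77 and 4.80. CHGB, SCG3, PTPRN and VGF ran from H0R to H3R and then to both A549 groups, which were not called different from each other. SCG2 ran from H0R (10.59 ± 0.16) through H3R (6.98 ± 0.27) to A0R (4.90 ± 0.09) and A3R (4.59 ± 0.20). CPE was high in H0R (8.29 ± 0.36) and H3R (8.11 ± 0.20) and low in A0R (5.20 ± 0.30) and A3R (5.51 ± 0.19). PCSK1N had the reverse order of the lines, at 8.07 ± 0.07 in A0R, 8.03 ± 0.20 in A3R, 7.48 ± 0.05 in H0R and 7.61 ± 0.20 in H3R.

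The promoters of the genes that fell are shown because those genes moved together and several such promoters are known for a cAMP response element, the site bound by CREB. RefSeq promoter windows (build GRCh38.p14, from 250 bases before to 50 after the start) were searched for 7 of the 10 genes, with 9 windows in all. They covered 3 of the 6 genes that fell (SCG3, VGF and PTPRN), and the promoters of CHGA, CHGB and SCG2 are not analysed here. Each is printed 5′ to 3′ on the gene's strand, with motif matches in capitals. The windows lie at chr15:51681253-51681552 (plus strand) for SCG3, chr7:101165520-101165819 (minus strand) for VGF and chr2:219309352-219309651 (minus strand) for PTPRN, whose first of 2 windows is shown.
SCG3: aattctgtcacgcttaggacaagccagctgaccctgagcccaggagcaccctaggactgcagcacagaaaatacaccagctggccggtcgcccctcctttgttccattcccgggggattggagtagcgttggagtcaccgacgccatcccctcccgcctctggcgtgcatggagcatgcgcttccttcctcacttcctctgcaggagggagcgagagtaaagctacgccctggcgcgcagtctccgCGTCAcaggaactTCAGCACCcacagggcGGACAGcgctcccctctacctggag
VGF: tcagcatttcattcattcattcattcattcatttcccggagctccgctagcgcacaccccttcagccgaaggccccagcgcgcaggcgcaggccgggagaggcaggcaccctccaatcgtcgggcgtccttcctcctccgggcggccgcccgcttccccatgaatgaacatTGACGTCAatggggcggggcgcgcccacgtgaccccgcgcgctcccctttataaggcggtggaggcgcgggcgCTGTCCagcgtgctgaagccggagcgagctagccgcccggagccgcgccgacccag
PTPRN: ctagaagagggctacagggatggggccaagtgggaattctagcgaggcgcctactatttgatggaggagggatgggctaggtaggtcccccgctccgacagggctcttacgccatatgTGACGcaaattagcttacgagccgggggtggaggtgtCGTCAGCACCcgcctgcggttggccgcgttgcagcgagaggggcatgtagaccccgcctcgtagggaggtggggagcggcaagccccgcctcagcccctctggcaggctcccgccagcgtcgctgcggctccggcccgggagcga

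A set of 4 motifs was searched on both strands of each window. The full element TGACGTCA lay in 2 of the 9 windows, at position -79 from the start in VGF and -77 in PCSK1, beside 1.85% of all 35116 promoter windows. Its 5-letter part TGACG, which overlaps the full element, lay in 6 of the 9, beside 24.6% of all windows, and PCSK1N was the gene without it in any window. TCAGCACC, part of the element RE1 that the repressor REST binds, lay in SCG3 at position 10 and in PTPRN at -93, beside 1.67% of all windows. GGACAG, another part of RE1, lay in SCG3 at position 26, after TCAGCACC on the same strand, and in VGF and PCSK1 on the opposite strand, in 3 of the 9 windows, beside 20.6% of all windows. Of the genes not called in HTB56, SCG5 and CPE held TGACG alone among these motifs and PCSK1N none. The windows of the 7 genes held between 11 and 35 CpG sites, with a median of 14 over all windows. VGF had the most (35) and SCG3 had 18, while CPE had 24 and SCG5 the fewest. A match describes these letters only and is not a bound site.

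The genes lie on 8 chromosomes, with SCG2 and PTPRN both on chromosome 2 and SCG3 and SCG5 both on chromosome 15. The nearest tested genes in RefSeq order, 2 on each side, were set beside the 6 genes that fell. Of these 24 neighbours, 3 were called lower and 6 higher in H3R against H0R, beside 10.9% and 8.57% of all genes, and their changes ran from -0.76 to 1.03. CHGB lay among neighbours that went the other way: GPCPD1 (0.88), SHLD1 (0.40), TRMT6 (1.03) and MCM8 (0.84) were all called higher while CHGB fell, although the call of SHLD1 was lost without H0R replicate 2 or 3 or H3R replicate 1 or 3 (limma adjusted p from 0.0571 to 0.0825). Next to SCG3, DMXL2 and LYSMD2 changed by -0.26 and -0.30 and were not called, and none of the 4 neighbours of SCG3 or of SCG2 was called. Beside VGF, AP1S1, a gene of a clathrin adaptor complex, changed by -0.76 (limma adjusted p = 0.000726) and TRIM56 by -0.51, both called lower. Beside PTPRN, DNPEP, an aminopeptidase gene, changed by -0.43 (limma adjusted p = 0.0207, a call lost without H0R replicate 1 or 2 or H3R replicate 2 or 3 at 0.0501 to 0.0903), and RESP18, which encodes a related secretory granule protein, was at 4.04 in H0R and 4.10 in H3R. Beside CHGA, LGMN and GOLGA5 were called higher, at 0.67 and 0.62.

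Across the 12 arrays, the 6 genes that fell resembled each other, with Pearson r from 0.905 to 0.992 over their 15 pairs. These correlations are a description over arrays that share 4 groups, and they follow the difference between H0R and the rest. The tested genes most like SCG3 were RUNDC3A (r = 0.996), FSTL5 (0.996) and STXBP5L (0.994). FSTL5 was also among the 3 nearest to CHGB, with SCG3 itself (0.992) and AP3B2 (0.991), a neuronal adaptor subunit gene. CHGA was nearest to MFNG (0.993), CHRNB2 (0.991) and DRD2 (0.989), SCG2 to RGS1 (0.997), LYPD6B (0.995) and MMP2 (0.995), VGF to SARM1 (0.990), PDCD4 (0.990) and EPHB1 (0.989), and PTPRN to DISP2 (0.994), SIGLEC15 (0.993) and VIPR1 (0.992). RUNDC3A changed by -2.53 in HTB56 and -0.11 in A549, and RGS1, a regulator of G protein signalling, by -3.24 and -0.12.

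Other genes of the pathway changed in both directions. Of 50 tested genes of granule biogenesis and the granule membrane, 8 were called lower and 6 higher in HTB56, beside the 10.9% and 8.57% of all genes. The median change was -0.05, beside 0.02 over all genes. RAB3C, whose product is a small GTPase of regulated exocytosis, changed by -3.76 (SE 0.14), to 3.66. That level is near the dim mark, so the size of the fall depends on background. SYP, which encodes the vesicle membrane protein synaptophysin, changed by -3.02 (SE 0.15). The fusion genes STX1A and SNAP25 changed by -2.29 (SE 0.16) and -1.67 (SE 0.12). CADPS, which encodes a priming factor of dense-core granules, changed by -1.61 (SE 0.14), to 3.41, under the dim mark. Its paralogue CADPS2 went the other way, by 1.18 (SE 0.18), from 4.34 to 5.53, and RAB3B, ATP6AP1, SYTL4 and TMED2 also rose, by 1.13, 0.79, 0.49 and 0.37. The counts include RAB27B, called lower, and HID1, called higher, whose calls were each lost without any 1 of 4 HTB56 arrays (for RAB27B H0R replicate 1 or 2 or H3R replicate 2 or 3, for HID1 H0R replicate 3 or any H3R array), at limma adjusted p from 0.0608 to 0.160. In A549 SNAP25 was the 1 of 50 genes called, at -0.54 (SE 0.12, limma adjusted p = 0.0261), beside 0.809% of all genes lower and 0.945% higher, and this call was lost on leaving out replicate 1 or 3 of A0R or replicate 1 or 2 of A3R (limma adjusted p from 0.0558 to 0.109) and with the A549 arrays alone (0.126).

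Other processing enzymes changed in both directions. Of 20 tested in HTB56, 3 were called higher and 3 lower, beside 8.57% and 10.9% of all genes, with a median of -0.0041. FURIN, the convertase of the constitutive secretory pathway, rose by 0.86 (SE 0.15), from 7.74 to 8.60, and QPCT, which forms the pyroglutamate end of some peptides, rose by 0.50 (SE 0.10), as did RNPEP, an aminopeptidase gene, by 0.45. AEBP1, a carboxypeptidase-like gene, fell by 1.08 (SE 0.14), PREPL by 0.56 and the convertase gene PCSK7 by 0.52. In A549 QPCT was the 1 called, at 0.44 (SE 0.10, limma adjusted p = 0.0449), beside 0.945% of all genes called higher and 0.809% lower. The QPCT call was lost without any 1 of the 12 arrays but A0R replicate 3 (0.0543 to 0.203). It was also lost with median centring (0.0538), with cyclic loess (0.0517) and with the A549 arrays alone (0.177). Of 51 tested peptide precursors, 2 were called lower in HTB56, STC1 at -1.06 (SE 0.20) and ADM at -0.57 (SE 0.19, limma adjusted p = 0.0491), and 0 higher, beside the same 10.9% and 8.57% of all genes. The ADM call was lost without A0R replicate 2, any A3R array, H0R replicate 1 or 2, or H3R replicate 2 or 3 (limma adjusted p from 0.0530 to 0.214), and also with no filter on dim signals (0.0514) or with median centring (0.0576). In A549, NTS was called lower at -4.20 (SE 0.29), beside 0.809% of all genes. BDNF and STC1 were called higher at 0.84 and 0.96, beside 0.945% of all genes. BDNF lost its call without any A0R array or A3R replicate 1 or 3 (0.0558 to 0.117) and with array weights (0.0703), and STC1 without replicate 1 or 2 of A0R or any A3R array (0.0630 to 0.129). STC1, which encodes the glycoprotein hormone stanniocalcin 1, moved in opposite directions in both lines (test of the difference, limma adjusted p = 0.000314).

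Of 27 tested transcriptional regulators described for granule genes, 4 were called higher and 4 lower in HTB56, beside 8.57% and 10.9% of all genes, and 0 in A549 by limma, beside 1.75%. REST, the repressor of many neuronal genes, rose by 0.48 in HTB56 (SE 0.10, limma adjusted p = 0.00272), from 8.88 to 9.36, and was at 8.64 in A0R and 8.81 in A3R (limma adjusted p = 0.663). The changes of REST in both lines did not differ past the threshold (limma adjusted p = 0.175). EGR1, FOXA2 and CREM rose by 1.02, 0.65 and 0.43. PAX6, an endocrine and neural lineage factor, fell by 2.05 (SE 0.14), CREB3L2 by 0.63, CREB1 by 0.41 and EHMT2, a histone methyltransferase gene, by 0.33. The CREB1 call was lost without H0R replicate 2 or 3 or H3R replicate 1 or 2 (limma adjusted p from 0.0618 to 0.0752), and that of EHMT2 without H0R replicate 1 (0.0514) or H3R replicate 2 (0.0590). What part these regulators have in the granin values was not tested.

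**Figure D4:**
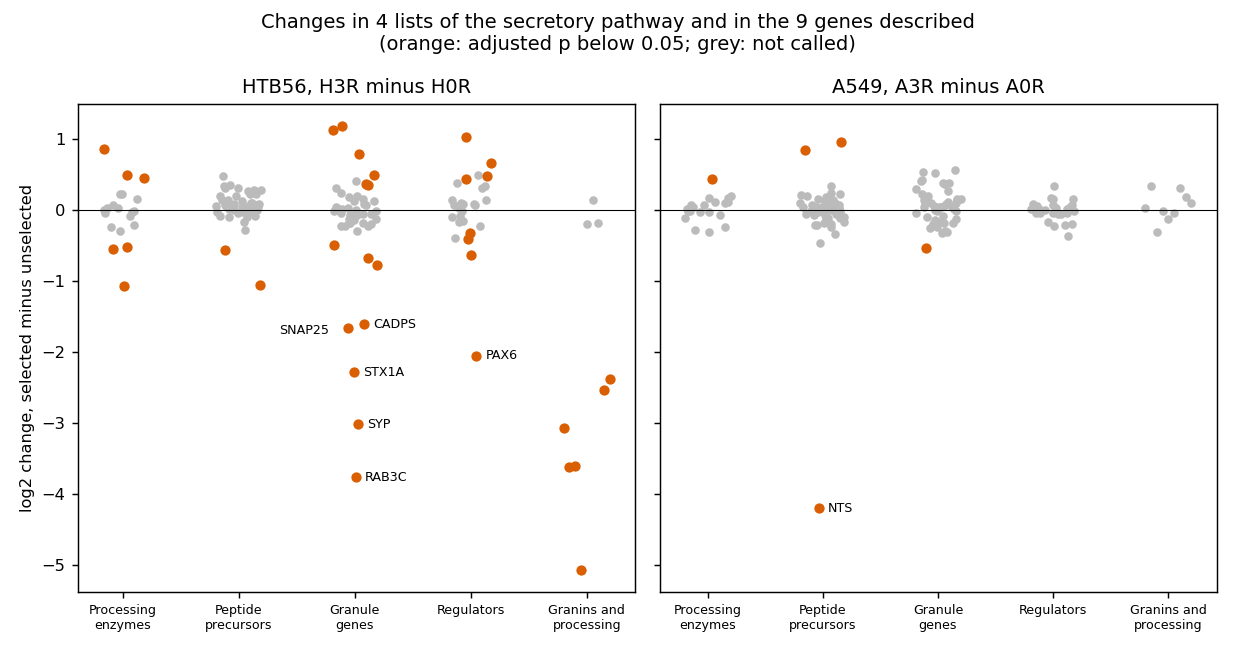
Log2 change with selection (y axis) of each tested gene in 4 lists of the secretory pathway and of the 9 measured genes, in HTB56 (left) and A549 (right), with genes called at an adjusted p below 0.05 in orange. In HTB56 falls of more than 1.6 lie among the 9 measured genes, in 5 granule genes (RAB3C, SYP, STX1A, SNAP25 and CADPS) and in the regulator PAX6, and in A549 the largest fall is NTS at -4.20.

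Markers of neuroendocrine cells did not fall as a block. Of 8 tested, 4 were called lower in HTB56, beside 10.9% of all genes. These were CHGA itself, SYP (also in the granule list above), NCAM1 at -1.70 (SE 0.18) and SYN1 at -1.03 (SE 0.12). INSM1 was at 6.76 in H0R and 6.84 in H3R, ENO2 at 7.41 and 7.45, UCHL1 at 6.41 and 6.28, and DDC at 4.89 and 4.66, none of them called. In A549, which has low granin signals, UCHL1 was at 11.67 in A0R and 11.63 in A3R, and DDC fell by 0.93 (limma adjusted p = 0.00239). Mean log2 levels over the 8 genes ran from 6.91 to 7.11 on the H0R arrays and from 5.84 to 5.94 on the H3R arrays. The list mean includes CHGA and SYP, which had the largest falls of the list. In A549 it ran from 7.01 to 7.06 in A0R and from 6.93 to 6.98 in A3R, so it did not follow the granin level across lines.

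Some markers of other cells rose in HTB56 where the granins fell. Of 6 tested fibroblast markers, 4 were called higher in H3R (COL1A1 by 1.41, COL3A1 by 1.29, LUM by 1.78 and PDGFRA by 0.71), beside 8.57% of all genes. COL1A2 (0.05) and PDGFRB (-0.18) were not called. The list mean ran from 5.82 to 6.12 in H0R and from 6.69 to 6.88 in H3R. DCN, a defining fibroblast marker, was under the dim mark on every array. Of 5 leukocyte markers LYZ and CD68 were called higher, by 1.67 and 0.65, beside the same 8.57% of all genes. CD3E (-0.08), CD14 (0.21) and ITGAM (-0.0006) were not called. The leukocyte list mean was 5.15 to 5.31 in H0R and 5.70 to 5.78 in H3R. PTPRC, which defines leukocytes, was under the dim mark on every array. Limma called 0 of 5 endothelial markers and 0 of 7 alveolar type 2 markers in HTB56, beside 8.57% of all genes higher and 10.9% lower. For endothelium the list mean was 4.55 to 4.58 in H0R and 4.43 to 4.62 in H3R. Of 5 epithelial markers EPCAM rose by 1.02 and the others were not called. Whether other cells had a part in the granin values was not tested.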

How the data were processed

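Messenger RNA of 12 samples was measured on Affymetrix whole-transcript arrays. The deposited table holds log2 values that the authors made by RMA. The submitters' processing notes name Affymetrix Expression Console as the tool, with no version. RMA corrects background, normalizes arrays to a common distribution and compresses differences of dim genes, and it would remove a shift shared by all mRNA. Of 33297 probe sets, 19460 had 1 gene symbol in the platform annotation, 1754 several and 12083 none; 19429 matched a RefSeq gene (GRCh38.p14). The brightest probe set stood for each gene and was kept where it exceeded the array's 20th percentile on at least 3 of 12 arrays, which left 16939 genes.

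Group means over all 12 arrays were fitted with limma 3.58.1 (lmFit, contrasts.fit, eBayes; R 4.3.3), two-sided, with Benjamini-Hochberg adjustment over all genes tested and a threshold of 0.05; standard errors are moderated. The code was tested on simulated data. Figures used matplotlib 3.10.9 in Python 3.11.15. The members, the gene lists and the tests were chosen with earlier results of these data known. Named are all members, up to 5 called genes per list, direction and line, REST, and the 3 tested genes with the highest Pearson r to each member called; neighbours and uncalled genes named beside these were chosen after their values were seen. Protein features could not be computed here, and 1 promoter window is not reported.

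Arrays with the same replicate number deviated together (r from 0.160 to 0.549 across genes in 18 pairs, against -0.417 to 0.205 for different numbers), so the numbers pair the samples, from the data; the labels do not say what they mean. Alternatives were the filter, the probe sets, median centring, cyclic loess, the arrays in the fit, the replicate block, trend and robust eBayes, array weights, a threshold of 0.01, treat at a fold of 1.2, and leaving out each array.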

Additional observations from a re-analysis of the deposited data

Results flagged for a closer look

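The change with selection differed between HTB56 and A549 for 6 of the 9 measured genes, by limma's test of the difference itself. The difference, HTB56 change minus A549 change on the log2 scale, was -5.05 for SCG3, -3.95 for CHGB, -3.30 for SCG2, -3.10 for CHGA, -2.71 for VGF and -2.47 for PTPRN. The first 3 had been seen to fall in HTB56 when the genes were chosen. SCG3 was under the dim mark of 3.48 in A549. CHGA, CHGB, SCG2 and PTPRN lay so low there that a fall as large as in HTB56 would have gone under that mark. For these genes and SCG3 the test cannot tell whether A549 would have shown a like fall. Groups of 3 arrays were too small for a test of single arrays that stand apart.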

How the results depend on the processing

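Of the 9 genes, limma called 6 in HTB56, 0 in A549, 6 in the difference of changes and 9 between unselected lines under each alternative run, and without any 1 array. Between selected lines 8 were called, 7 to 8 without 1 array, 7 at a threshold of 0.01 and 5 by treat against a fold of 1.2, where SCG5, CHGB and PCSK1N lost their calls (limma adjusted p = 0.0530, 0.119 and 0.299). The replicate block changed no call of these genes. Signs turned, never past the threshold, when 1 array was left out. The ranges were -0.292 to 0.0309 for CPE in HTB56; -0.0769 to 0.144 for CHGA, -0.142 to 0.363 for VGF, -0.0625 to 0.0745 for SCG3, -0.144 to 0.048 for PCSK1N and -0.0253 to 0.196 for PTPRN in A549; -0.155 to 0.0447 for the difference of changes of SCG5; and -0.0404 to 0.0777 for CHGA between selected lines.

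Over all genes, 297 were called in A549, against 562 with the replicate block, 179 with the A549 arrays alone, 142 at 0.01, 104 by treat, and, on leaving out 1 array, 179 (A0R replicate 1), 192 (A0R replicate 2) and 192 (A3R replicate 2). In HTB56 3298 were called, 4744 with the replicate block, 4655 with array weights, 2039 at 0.01 and 1189 by treat. The difference of changes gave 2000, 3458 with the block, 1036 at 0.01 and 819 by treat. Between lines, treat called 4714 of 7648 unselected and 4556 of 7554 selected. Of the called genes in the lists or named as neighbours, 48 in HTB56 and 9 in A549, the threshold of 0.01 ended 7 and 5 calls and treat 20 and 6, REST among the 20 (limma adjusted p = 0.210).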
